A study of Mus musculus with 15 samples.

Results

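Sema3e, Bach2, Cntn2, Tob2, Nox4, Gna14 and Susd4 were 7 genes among 12393 measured in mouse liver, chosen by their signal on these arrays, which was higher in livers that expressed the Z form of human alpha1-antitrypsin, or whose difference between transgene on and off was larger in the Z line. They were represented by 14 of 22690 probe sets (each a set of short probes for a transcript on an Affymetrix array). The choice used the Z4, Z1, M4 and M1 arrays, so every difference of the 7 genes between groups is given as a description. Where a threshold is said to be passed, nothing is read from it. The study used 15 arrays, 1 for each biological replicate, in 5 groups of 3 mice labelled as adult males, 3 months old. M4 arrays 1 and 2 read as female RNA, as given below. Z4 and M4 livers carried an inducible human transgene, active only in hepatocytes, for the mutant (Z) or wild type (M) protein, and these mice received no doxycycline, so the transgene was on. Z1 and M1 livers carried the same transgenes, and the mice drank doxycycline at 40 µg per mL from conception, which kept the transgene off. WT livers came from nontransgenic littermates without doxycycline. Strain, the promoter that drives the transgene and the number of founder lines are not given in the sources used here.

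Alpha1-antitrypsin is a protease inhibitor made by hepatocytes, and its Z form folds poorly and stays in the endoplasmic reticulum. The 7 genes belong to unrelated families. Sema3e encodes a secreted semaphorin that binds the receptor plexin D1 on endothelial and other cells. Cntn2 encodes a cell adhesion protein best known from axons. Bach2 is a transcriptional repressor known for its part in lymphocyte differentiation, and Tob2 is an antiproliferative protein that binds the CCR4-NOT complex, which shortens poly(A) tails. Nox4 is an NADPH oxidase that makes hydrogen peroxide, Gna14 is a G protein alpha subunit of the Gq class, and Susd4 is a membrane protein that restrains complement.

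By the brightest probe set of each gene, the label "high with Z protein" fitted 4 of the 7 genes on all arrays. Not every probe set of Sema3e and Tob2 did so, as given below. Sema3e, Bach2, Cntn2 and Tob2 read higher on each Z4 array than on any of the other 12 arrays, as did 1.38% of all genes. Nox4, Gna14 and Susd4 did not. Nox4 in Z4 overlapped WT and stood out by being low in M4, and Gna14 and Susd4 in Z4 overlapped M1, where the transgene was off.

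**Figure D1:**
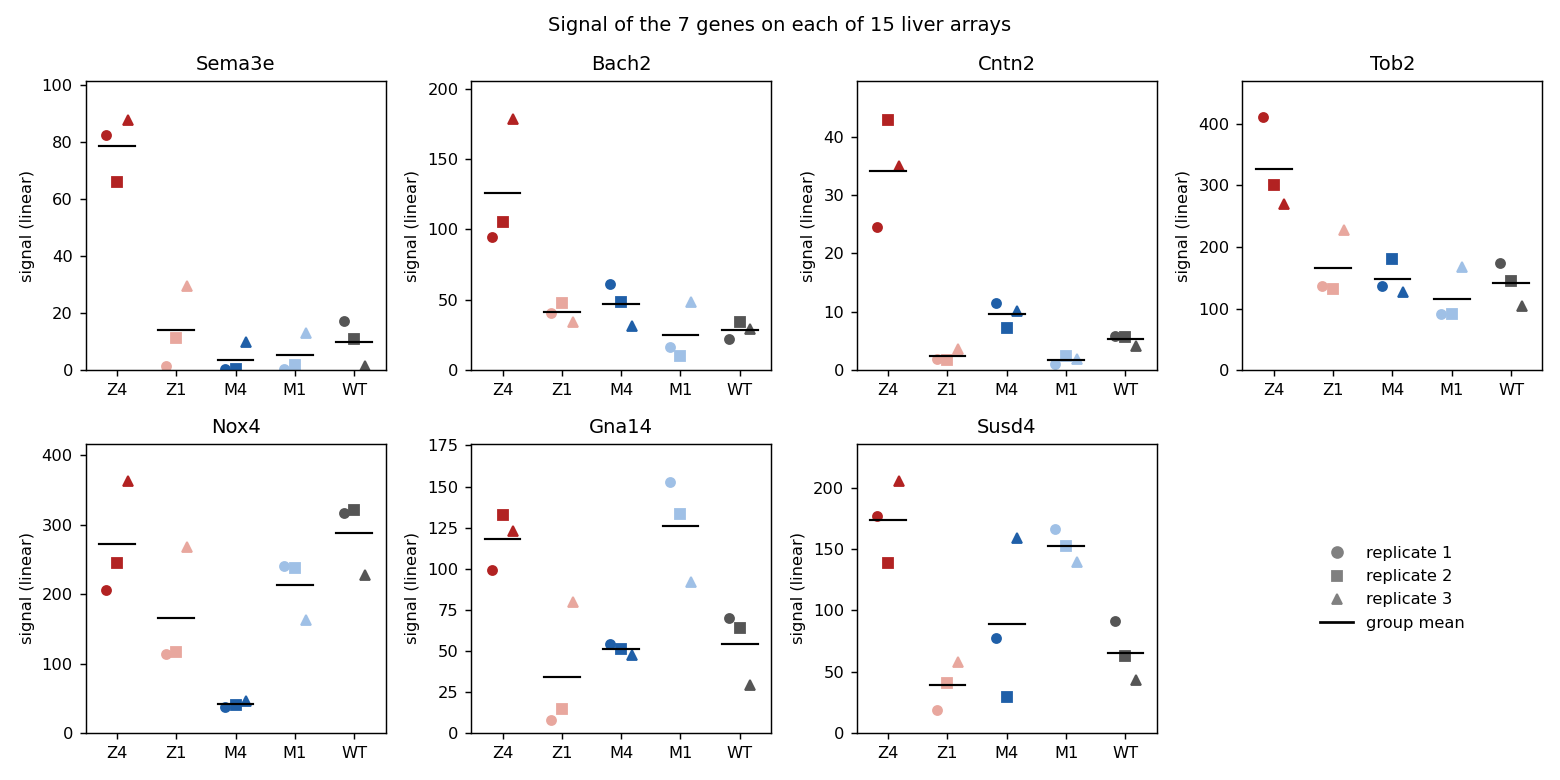
Signal (linear units, y axis) of each of the 7 genes, by its brightest probe set, on the 15 arrays, by group (x axis). There is 1 point per array, its shape giving the replicate number, and a line at the mean of 3. Z4 points lie above all others for Sema3e, Bach2, Cntn2 and Tob2, whereas Nox4 is lowest in M4, at 38.0 to 45.3, and Gna14 and Susd4 overlap between Z4 and M1.

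Promoter sequences are shown for the 3 genes whose window held a match to one of 8 response element motifs searched. Each runs 5′ to 3′ from 250 bases before to 50 bases after a RefSeq transcript start (GRCm38.p6), with the match in capitals. The lines below give Sema3e at chr5:14025026-14025325 on the plus strand, Cntn2 at chr1:132542891-132543190 on the minus strand and Gna14 at chr19:16435417-16435716 on the plus strand.
Sema3e: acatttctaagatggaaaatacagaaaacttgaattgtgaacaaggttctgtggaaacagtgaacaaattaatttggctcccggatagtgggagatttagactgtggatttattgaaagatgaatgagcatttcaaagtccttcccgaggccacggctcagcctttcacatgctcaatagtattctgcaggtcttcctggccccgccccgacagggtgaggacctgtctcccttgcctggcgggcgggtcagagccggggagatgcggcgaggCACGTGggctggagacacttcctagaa
Cntn2: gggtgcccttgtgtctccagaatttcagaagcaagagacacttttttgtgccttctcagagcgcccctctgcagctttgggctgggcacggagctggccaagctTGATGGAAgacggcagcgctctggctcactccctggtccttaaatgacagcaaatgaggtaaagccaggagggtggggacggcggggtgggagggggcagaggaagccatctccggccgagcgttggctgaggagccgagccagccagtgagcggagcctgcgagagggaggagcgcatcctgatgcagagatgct
Gna14: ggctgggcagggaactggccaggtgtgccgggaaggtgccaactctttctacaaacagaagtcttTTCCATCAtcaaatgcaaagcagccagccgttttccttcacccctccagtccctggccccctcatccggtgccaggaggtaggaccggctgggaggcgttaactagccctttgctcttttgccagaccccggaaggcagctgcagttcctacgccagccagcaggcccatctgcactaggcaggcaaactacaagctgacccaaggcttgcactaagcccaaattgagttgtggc

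In Sema3e the capitals mark an E-box (CACGTG), the element that clock and MYC-type factors bind, which begins 24 bases into the transcript. A CACGTG occurred in 7.15% of 32851 mouse promoter windows of the same length. In Cntn2 and Gna14 they mark the composite element of ATF4 (TGATGNAA, searched on both strands), a factor of the integrated stress response, which begins 146 bases before the start in Cntn2 and 185 before it, on the minus strand, in Gna14. It occurred in 3.97% of windows. The other motifs were the D-box TTANGTAA, the cAMP response element TGACGTCA, the XBP1 element TGACGTGG, the ER stress response element, the AP-1 core TGACTCA and the nuclear receptor half-site AGGTCA, found in 2.32%, 1.79%, 0.676%, 0.119%, 5.20% and 16.3% of windows. None of these letters was in the 8 windows tabled for the 7 genes, of which Susd4 has 2, and the windows of Nox4, Bach2, Tob2 and Susd4 held no match. A match is a description of the sequence and no evidence of binding.

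The arrays themselves differed between groups. Poly-A control probe sets, which read bacterial RNAs added before labelling, had a median of 2 to 2.3 on Z4 and 3.7 to 5.2 on M4 arrays, against 33.8 to 57.9 on the others. The median signal of all probe sets was 43.9 to 54.9 on arrays of Z4 and M4, 30.4 to 32.2 on those of Z1 and M1, and 42.3 to 44.9 on WT arrays. The probe set for the 5′ part of 18S ribosomal RNA read 1830 to 2680.7 on Z4 and M4 arrays and 75 to 568.1 on the others, and hybridization controls read 238.3 to 287.8 against 452.1 to 684.9. The part of these readings, which moved with the on and off groups, was not tested. M4 arrays 1 and 2, although labelled male, gave signals of female liver: the summed signal of 13 male-type liver genes was 12151.7 and 10711.2 there and 28578 to 47877.8 on the other 13 arrays. M4 array 3 read 37999.3. Xist, expressed in females, read 1149.2 and 226 on M4 arrays 1 and 2 and 13.7 to 74.3 on the others. The Y-linked Eif2s3y read 0.4 and 1.3 on M4 arrays 1 and 2 and 42.1 to 437.6 on the others. The M4 group thus mixed female and male RNA, and the part of sex in differences from M4 was not tested. Differences of the 7 genes from M4 are therefore also given without M4 arrays 1 and 2, whereas counts for single gene families use all arrays. Without them M4 is 1 array with no spread of its own, so only sizes of differences are given. Of 10 hepatocyte markers, such as Alb and Ttr, all were present, but they summed to 92419 to 110550 in WT against 55150 to 75043 in the other groups. In Z4 minus WT 7 of the 10 were called lower, where 12.3% of all genes were called in either direction. The part of this hepatocyte marker difference in the comparisons with WT was not tested. Pancreas and adipose markers summed to 1952.4 on Z1 array 1, where Ctrb1 read 416.3, against at most 54.9 for Ctrb1 on the other 14 arrays.

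Sema3e was low on all arrays outside Z4. Its main probe set read 82.5, 66.2 and 87.9 on the Z4 arrays. On the Z1 arrays it read 1.4, 11.4 and 29.5, on M4 0.4, 0.3 and 9.9, on M1 0.4, 2.0 and 13.2, and on WT 17.2, 11.1 and 1.6. The 12 arrays without the expressed Z protein thus overlapped each other and stayed under the lowest Z4 array. On the scale of log2(signal + 16), used for all differences below and understating changes of low signals, Z4 exceeded Z1 by 1.76 (SE 0.34, n = 3 and 3), M4 by 2.31 and WT by 1.91. Without M4 arrays 1 and 2 the difference from M4 was 1.87. With values this low outside Z4 the sizes depended on the constant: they were 3.03, 4.87 and 3.26 with a constant of 1 and 0.88, 1.08 and 0.95 with 64.

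The other 2 Sema3e probe sets were dimmer. The probe set 1425906_a_at read 15, 3.2 and 17.4 in Z4 and 14.1, 11.5 and 2.2 in WT, which overlap. The probe set 1427673_a_at read 19.5, 8.1 and 13.1 in Z4, above all Z1, M4 and M1 arrays (at most 4.3), but WT array 3 reached 13.3. Their differences between Z4 and WT were 0.13 (SE 0.22) and 0.42 (SE 0.18).

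Cntn2 followed the same outline at low signal. It read 24.5, 42.9 and 35.0 in Z4, and 11.5, 7.3 and 10.1 in M4. The remaining groups were lower still, at 5.9, 5.7 and 4.2 in WT, 2.0, 1.7 and 3.7 in Z1 and 1.0, 2.4 and 2.0 in M1. Each of Z4, M4 and WT thus lay apart from the next group, and Z1 and M1 overlapped. Of all genes 22.1% had M4 wholly above WT, 44.2% M4 above M1, 32.0% Z1 below WT and 34.7% M1 below WT. Z4 exceeded Z1 by 1.43 (SE 0.14), M4 by 0.95 (0.92 without M4 arrays 1 and 2) and WT by 1.22. Outside Z4 each array read less than 16, and the differences changed with the constant: Z4 exceeded Z1 by 3.35 with a constant of 1 and by 0.56 with 64. Markers of neurons and glia, cells in which Cntn2 is best known, summed to 164.1 to 191.8 in Z4, 201 to 225.4 in M4 and 168.3 to 203.4 in WT over 6 genes, of which 3 averaged under 16. In Z1 and M1 they summed to 49.7 to 84.1. Their part in the Cntn2 difference was not tested.

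Bach2 was read by 1 probe set. Its Z4 signals were 95, 105.0 and 178.4, with array 3 well above the other 2. M4 gave 61.4, 48.6 and 31.7, Z1 40.9, 48.0 and 34.4, WT 22.3, 34.1 and 29.2, and M1 16.6, 10.4 and 48.2. M4 and Z1 overlapped, Z1 lay just above WT, and M1 overlapped M4, Z1 and WT. The difference of Z4 was 1.28 from Z1 (SE 0.30), 1.15 from M4 and 1.64 from WT, and 1.53 from M4 without M4 arrays 1 and 2. B cell markers, 9 genes such as Cd79a and Ms4a1, summed to 320.4 to 378.5 in Z4 and 379.4 to 430.9 in M4, against 120.7 to 164.4 in Z1, 87.7 to 111.2 in M1 and 286 to 309.4 in WT. In the on-off contrasts 6 of the 9 were called higher in Z4 than in Z1 and 7 in M4 than in M1. Of all genes 39.3% and 50.5% were called there, with 80.8% and 75.4% of the calls higher. The part of B cells in the Bach2 difference was not tested. In whole liver, a change in the number of cells of a type and in RNA per cell cannot be told apart.

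Tob2 was read by 4 probe sets that disagreed outside Z4. The brightest, 1448667_x_at, read 410.7, 300.9 and 269.3 in Z4. It read 137.0, 131.1 and 227.9 in Z1, 136.8, 180.5 and 126.2 in M4, 90.9, 91.1 and 166.8 in M1, and 174.2, 144.2 and 104.6 in WT, all overlapping. By Affymetrix naming an _x_at probe set can also bind other transcripts. By that probe set Z4 exceeded Z1 by 0.94 (SE 0.26), M4 by 1.06 (1.25 without M4 arrays 1 and 2) and WT by 1.13.

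A second probe set, 1417310_at, placed both on groups above the rest. It read 170.6, 179.4 and 188.5 in Z4, 116.0, 149.7 and 141.0 in M4, 55.5, 78.1 and 58.0 in WT, and at most 42.9 in Z1 and M1. Its M4 signal exceeded WT by 0.93 (SE 0.19), and Z4 exceeded M4 by 0.37 (SE 0.19). For 1417309_at, Z4 (119.0, 98.5 and 74.8) overlapped WT (99.7, 77.6 and 80.5), and M4 was lower than WT by 0.65 (SE 0.20). For both of these probe sets Z1 and M1 were also lower than WT, 1417310_at by 0.98 and 0.84 and 1417309_at by 0.75 and 0.92. All 6 of these differences from WT passed the threshold over 20380 probe sets, as did 23.0%, 21.3% and 23.2% of probe sets for M4, Z1 and M1. The M4, Z1 and M1 arrays had entered the choice of Tob2, so these passes are descriptions and not tests. For 1448666_s_at, Z4 (160.7, 76.4 and 56.8) overlapped Z1, M4 and M1. The statement that Tob2 was higher in Z4 than in M4 therefore held without overlap of arrays in 3 of 4 probe sets, and that it was higher than in WT in 3 of 4, though not the same 3.

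**Figure D2:**
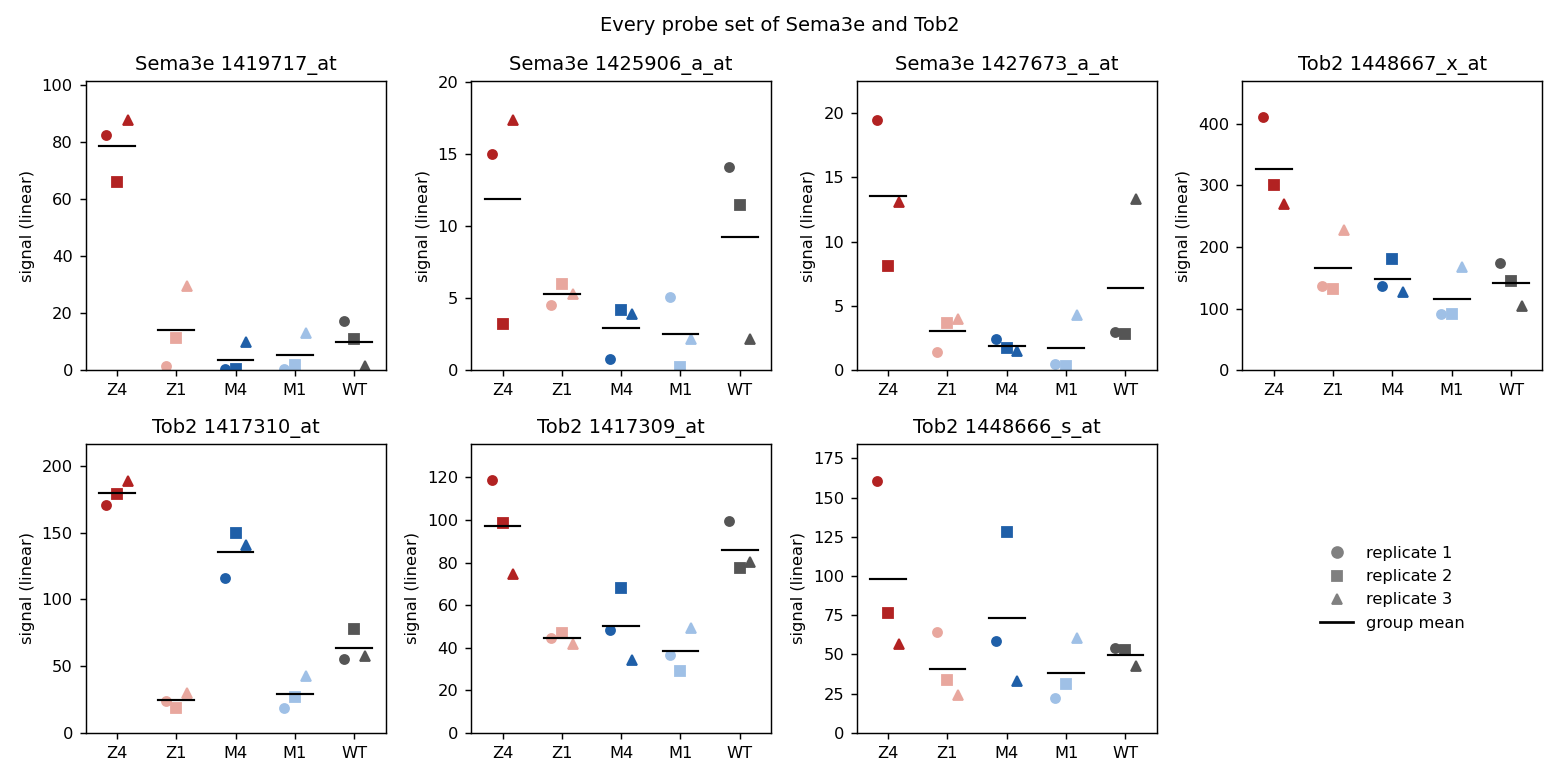
Signal (linear units, y axis) on each array for the 3 probe sets of Sema3e and the 4 of Tob2, by group (x axis), with points for arrays and a line at the mean of 3. The bright Sema3e probe set separates Z4 from the rest and the 2 dim ones do not separate it from WT, and Tob2 1417310_at is high in M4 (116.0 to 149.7) where 1448667_x_at is not.

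Nox4 went against its label. The main probe set read 206.7, 245.5 and 362.8 in Z4 and 316.9, 321.3 and 227.0 in WT, so Z4 and WT overlapped (difference -0.10, SE 0.28). It read 240.6, 237.5 and 163.5 in M1 and 113.1, 117.0 and 267.5 in Z1, which overlapped each other and Z4. M4, at 38.0, 40.1 and 45.3, lay below all 12 other arrays. The difference Z4 minus M4 was 2.30 (SE 0.28, and 2.19 without M4 arrays 1 and 2), the 13th highest of 12393 genes, whereas Z4 minus WT ranked 8474. Z4 exceeded Z1 by 0.73, and by 1.10 without Z1 array 3, the array at 267.5.

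Nox4 was also set against littermates, as a description, since its low M4 signal is what placed it among the 7 genes. Nox4 was 2.40 log2 units lower in M4 than in WT (SE 0.28), with all 3 arrays below all 3, and 2.30 lower without M4 arrays 1 and 2. All M4 arrays lay below all WT arrays for 12.2% of genes and below all M1 arrays for 13.9%. M4 array 3 read 45.3 although its male-type liver genes were in the range of the other groups. The second probe set, 1419161_a_at, was lower in M4 than in WT by 1.73 (SE 0.33). In Z1 Nox4 was 0.83 lower than in WT (SE 0.28), and Z1 array 3 was within the WT range. Stellate cell and fibroblast markers, of a liver cell type known to express Nox4, summed to 1510.5 to 2656.9 over 13 genes in M4, 1644.7 to 1749.5 in WT and 2369.4 to 2593.5 in Z4, and their part was not tested.

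Gna14 was high in both Z4 and M1. It read 99.2, 132.5 and 123.0 in Z4 and 152.8, 133.5 and 91.6 in M1, which overlapped. WT read 70.1, 64.1 and 28.9, M4 54.1, 50.8 and 47.5, and Z1 7.7, 14.3 and 79.6. Z1 array 3 thus stood far above the other 2 arrays of its group, and without it Z4 minus Z1 went from 1.70 (SE 0.40) to 2.32. Z4 exceeded M4 by 1.00 (1.07 without M4 arrays 1 and 2) and WT by 0.98, with no overlap of arrays in either. In the M line the order was opposite: every M4 array lay below every M1 array (M4 minus M1 -1.06), and every Z1 array below every M1 array, as for 8.79% of genes. The second probe set, 1420385_at, gave the same order of group means, with Z4 minus WT at 0.59 (SE 0.30) and WT (25.2 to 46.9) still below Z4 (54.3 to 74.6).

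Susd4 was also high in both Z4 and M1. It read 177.5, 138.8 and 205.3 in Z4, 166.4, 152.6 and 139.5 in M1, 91.0, 62.4 and 43.4 in WT, and 18.5, 40.8 and 57.6 in Z1. Z4 and M1 overlapped and lay above WT and Z1. M4 was spread widely, at 77.7, 29.2 and 159.0, and the high array was number 3, the one with male-type liver genes. Z4 exceeded M4 by 1.05 (SE 0.39) with all arrays and by 0.10 without M4 arrays 1 and 2, and M4 minus M1 went from -0.90 to 0.05. The place of Susd4 in the comparison of Z with M therefore rested on those 2 arrays.

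**Figure D3:**
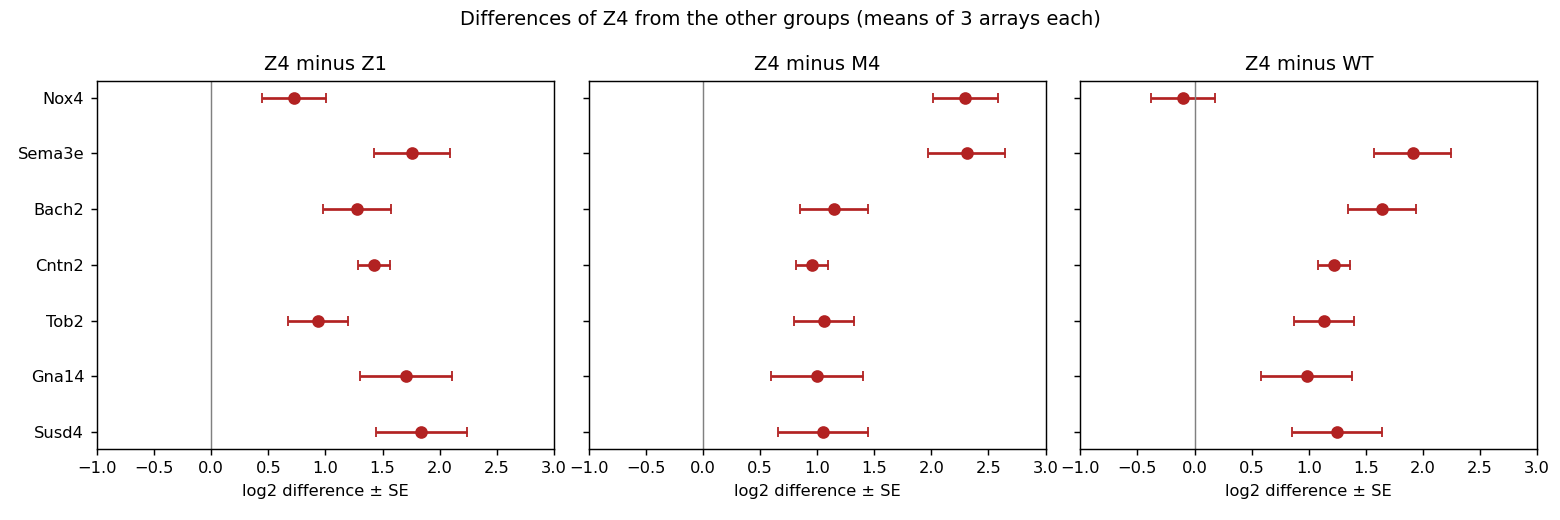
Difference of Z4 from Z1, M4 and WT on the log2(signal + 16) scale (x axis, point ± SE from the fit, means of 3 arrays) for each gene (y axis). All 7 genes are above 0 against Z1 and M4, and Nox4 (-0.10) is the exception against WT.

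Against Z1 all 7 differences were above 0 (0.73 to 1.84, median 1.43, with a median of 0.25 over all genes), and 6 of 7 genes had every Z4 array above every Z1 array, as did 42.2% of all genes. Against M4 they were 0.95 to 2.31 (median 1.06, all genes -0.03, and 0.10 to 2.19 with a median of 1.25 without M4 arrays 1 and 2), and 6 genes were free of overlap, against 8.16% of all genes. Against WT they were -0.10 to 1.91 (median 1.22, all genes 0.06), with 6 free of overlap, against 19.7%. Against M1 4 genes were free of overlap, against 44.1%. These counts follow from how the genes were chosen.

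Comparing the on-off difference between lines separated the genes further. The Z line exceeded the M line by 2.72 for Nox4, 2.77 for Gna14 and 2.74 for Susd4 (SE 0.40 to 0.57), and M4 was lower than M1 for each. For Sema3e the excess was 1.86, with M4 minus M1 at -0.11. It was 0.90 for Cntn2, 0.59 for Tob2 and 0.57 for Bach2, in which M4 also exceeded M1, by 0.52, 0.34 and 0.70. Without M4 arrays 1 and 2 the excess of Susd4 was 1.79, and those of the other genes were 0.78 to 2.84.

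**Figure D4:**
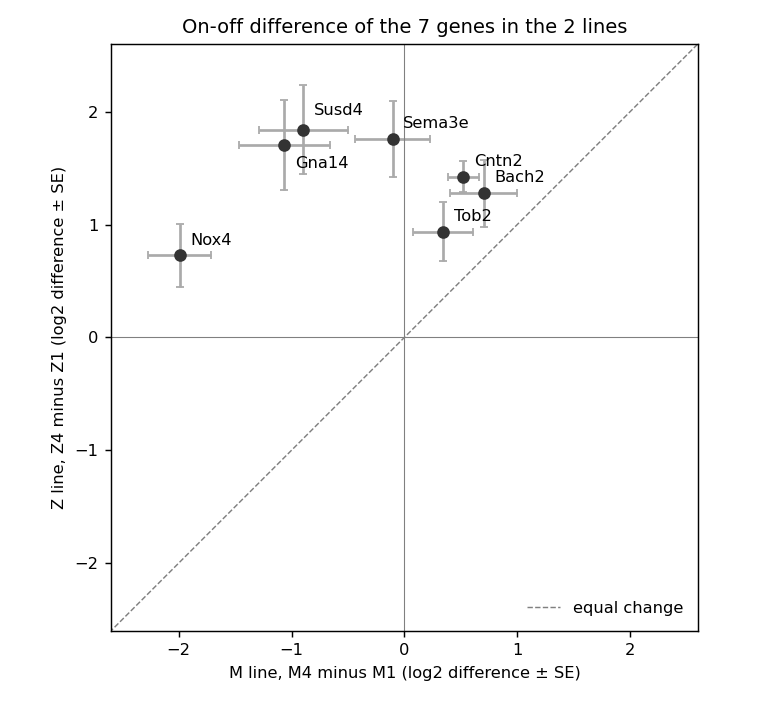
On-off difference in the M line (M4 minus M1, x axis) against that in the Z line (Z4 minus Z1, y axis), log2 scale, 1 point per gene with SE bars, and a dashed line of equal change. All 7 points lie above the line, with Nox4, Gna14 and Susd4 left of 0 and Bach2, Cntn2 and Tob2 right of it.

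The 3 comparisons with littermates were fitted over all genes, but the M4, M1 and Z1 arrays had entered the choice of the 7 genes, so the counts are descriptions and nothing is read from them. By the probe set used for each gene, 1 of 7 (Nox4, lower) passed the threshold in M4 minus WT, where 24.1% of all genes did and 9.48% were lower. The 95% intervals of that difference were -0.88 to 0.84 for Gna14 and -0.49 to 0.64 for Tob2. In Z1 minus WT 1 of 7 (Nox4, lower) passed, where 24.4% of genes did and 20.3% were lower, and this ended in 10 of the 14 alternatives. In M1 minus WT limma called 0 of 7, where 26.4% of genes were called, and 2 of 7 had an unadjusted p under 0.05. These were Gna14 and Susd4, higher by 1.04 (SE 0.40) and 1.09 (SE 0.39), with all 3 M1 arrays above all 3 WT arrays, as for 11.0% of genes. Sema3e, Bach2, Cntn2 and Tob2 differed from WT by -0.40 to 0.49 in these comparisons by the probe set used, and the other Tob2 probe sets by more, as given above.

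Over the 15 arrays the genes fell into similar shapes. Sema3e, Bach2, Cntn2 and Tob2 correlated with each other at Pearson r of 0.746 to 0.887, and Gna14 with Susd4 at 0.822. Nox4 had r of 0.014 to 0.485 with the other 6. These points share group and array signal level. Genes chosen for the same group differences also tend to correlate by that choice. The values, and the grouping they give, are therefore descriptions. Outside the 7 genes, those most like Cntn2 were Hlf (r = 0.932), a transcription factor of clock output, Lalba (0.923) and Rspry1 (0.907). Those most like Sema3e were Lrpprc (0.927), a mitochondrial RNA-binding protein, Slc32a1 (0.886) and Med20 (0.857). Bach2 was closest to Cramp1l (0.909), Gpatch8 (0.887) and Ankrd33b (0.884), and Tob2 to Bmp2 (0.889), Sft2d1 (0.874) and Slc35b3 (0.856). Nox4 was closest to Ugp2 (0.902), which makes UDP-glucose, Cyp2d13 (0.885) and Zfp975 (0.882). Gna14 was closest to Chn2 (0.865), Khk (0.859), the fructose kinase, and Ginm1 (0.855), and Susd4 to Atp6v0e2 (0.791), Trim6 (0.784) and Fmn2 (0.767). Hlf read 279 ± 26.3 (SD, n = 3) in Z4 against 123 to 151 as means of the other groups, and Lrpprc 432.5 ± 23.3 against 292.5 to 325.

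The families of the 7 genes were read from lists of 106 other genes, of which 85 were measured. In Z4 minus Z1 limma called 37 higher and 8 lower (52.9%), where 39.3% of all genes were called. The list's median was 0.39 and that of all genes 0.25, and after quantile normalization, which moved the latter to 0.05, 17 were higher and 9 lower. Of all calls 80.8% were higher before and 60.4% after. In M4 minus M1 40 were higher and 8 lower, against 50.5% of all genes called (23 and 8 after quantile normalization). In Z4 minus M4 3 of 85 were called, all higher, where 5.16% of all genes were. These were Rgs16, Gnai3 and Cnot6, the last 2 named after their values were seen, with log2 differences of 2.82, 1.57 and 1.48 (limma adjusted p = 0.00561, 0.0437 and 0.0454). Gnai3 read 781.6, 185.9 and 135.9 and Cnot6 264.8, 47.3 and 50 in M4, against 813.8 to 899.4 and 259.7 to 308.7 in Z4, so M4 array 1 was near or within the Z4 range for both, and M4 arrays 2 and 3 were the low ones. The Rgs16 call held without any single M4 array (adjusted p = 0.00237 to 0.0157) and ended with a constant of 1 (0.0766) and with only Z4 and M4 in the fit (0.0815). Rgs16 was on its list although the study's publication had singled it out, so among the 3 of 85 its call is no independent evidence. In Z4 minus WT 8 were higher and 8 lower, where 12.3% of all genes were called.

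Around Gna14, genes were called in both directions, as over all genes. Of 18 genes measured 7 were higher and 2 lower in Z4 than in Z1. Of all genes 39.3% were called there, with 80.8% of the calls higher. Rgs16, which speeds up GTP hydrolysis by Gq and Gi subunits, read 277 ± 38.0 in Z4, 12.8 ± 17.2 in Z1, 30.4 ± 28.4 in M4, 2.93 ± 2.00 in M1 and 68.9 ± 40.7 in WT (SD, n = 3). The study's publication singled it out, so it is no independent evidence. Gna11, a close relative of Gna14, went from 347 ± 37.6 in Z1 to 172 ± 19.9 in Z4 (log2 difference -0.95, limma adjusted p = 8.08e-05) and from 392.1 ± 28.8 in M1 to 227 ± 11.1 in M4 (-0.75, limma adjusted p = 2.43e-04). The median over all its probe sets was 0.03 and 0.10 in these contrasts, so its probe sets disagreed. Gnaq was not called in Z4 minus Z1 (0.84, limma adjusted p = 0.0506). Among 18 genes the list median was 0.37.

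Around Tob2, 4 of 13 genes were higher and 2 lower in Z4 than in Z1, where 39.3% of all genes were called. Cnot7, the deadenylase that TOB proteins bind, fell from 286 ± 15.1 in Z1 to 92.3 ± 27.2 in Z4 (log2 difference -1.51, limma adjusted p = 1.25e-04), and was also below WT (270 ± 37.8, -1.43, adjusted p = 0.00107). It was 109 ± 2.95 in M4 and 143 ± 49.3 in M1. Cnot6l, another deadenylase, rose from 79.6 ± 10.5 to 424 ± 23.3 in the Z line (2.21, adjusted p = 1.29e-04), and read 228 ± 170 in M4. Btg1, an antiproliferative relative, read 793 ± 91.6 in Z1 and 362 ± 9.03 in Z4 (-1.09, limma adjusted p = 2.08e-04). It read 349 ± 58.0 in WT, 408 ± 55.0 in M1 and 441 ± 86.8 in M4, so Z1 was the group that stood apart. Btg1 was the 1 family gene called in the interaction, where 0.613% of all genes were. Tob1 was not called in Z4 minus Z1 (-0.76, limma adjusted p = 0.0810).

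Around Sema3e, 10 of 14 genes were higher and 1 lower in Z4 than in Z1, and 11 and 1 in M4 than in M1. Over all genes 39.3% and 50.5% were called. The neuropilin Nrp2 went from 21.1 ± 10.2 to 95.9 ± 3.44 in the Z line (1.62, limma adjusted p = 4.39e-05) and from 14.9 ± 5.48 to 93.6 ± 19.6 in the M line (1.82). Sema3c and Kdr, an endothelial receptor that is also in the endothelial marker list, rose by 0.96 and 0.94 in the Z line. In the M line their means also rose, from 10.2 in M1 to 36.1 in M4 and from 75.2 to 183. Plxnd1, the receptor of Sema3e, was lower in Z4 (32.9 ± 16.2) than in Z1 (63.3 ± 11.7, -0.75, limma adjusted p = 0.0193), and without Z4 array 2 the difference was -0.44 and not called (without Z1 array 3 -0.64, not called). Endothelial markers summed to 1625.3 to 1677.9 in Z4, 1758.3 to 2425.6 in M4, 1021 to 1400.4 in Z1, 1143.7 to 1249 in M1 and 1362.1 to 1781.9 in WT over 11 genes, and their part in these differences was not tested.

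The adhesion partners of Cntn2 were higher in 7 of 11 genes in Z4 than in Z1 and in 6 of 11 in M4 than in M1, with none lower. Of all genes 39.3% and 50.5% were called in these contrasts. L1cam, an adhesion protein of the same superfamily, went from 16.7 ± 4.51 to 107 ± 5.92 in the Z line (1.92, limma adjusted p = 4.46e-06) and from 17.1 ± 1.76 to 102.5 ± 9.70 in the M line. Cntn4 and Cntnap4 rose by 1.27 and 1.35 in the Z line. Cntn1 rose by 0.48 there (limma adjusted p = 0.0168), which ended after quantile normalization (0.03). In the M line the means also rose, from 12.8 in M1 to 34.8 in M4 for Cntn4, 4.87 to 48.7 for Cntnap4 and 8.80 to 22.9 for Cntn1.

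Around Nox4, 3 of 8 genes were higher and 1 lower in Z4 than in Z1, where 39.3% of all genes were called. Cybb and Ncf4, the phagocyte oxidase subunits, were higher by 0.83 and 0.59 in Z4 than in Z1, and both calls ended after quantile normalization (adjusted p = 0.328 and 0.604). Rac2, a GTPase of blood cells, rose by 1.00 (limma adjusted p = 1.19e-04). In the M line the means of these genes also rose, from 16.4 in M1 to 50.6 in M4 for Cybb, 33.0 to 68.9 for Ncf4 and 21.7 to 86.5 for Rac2. Cyba, the subunit that Nox4 needs, was 48.7 ± 4.93 in Z4, 52.0 ± 15.2 in Z1, 81.7 ± 25.8 in M4, 48.1 ± 8.76 in M1 and 62.5 ± 18.3 in WT and was not called in Z4 minus M4 (-0.56, limma adjusted p = 0.179). Of the blood cell marker lists, macrophage markers summed to 1425.5 to 1834.7 in Z4 and 1482.4 to 2454.3 in Z1 over 10 genes, with none called higher. Neutrophil markers summed to 207.2 to 252.9 and 59.5 to 98.6 over 6 genes, with 3 called higher and 0 lower. Among them S100a8 read 2.6, 26.9 and 4.1 in Z4 and 33, 7.8 and 30.1 in Z1. T and NK cell markers summed to 106.6 to 162.6 and 43.5 to 58.5 over 9 genes, of which 8 averaged under 16. B cell markers were higher too, as given beside Bach2, and the part of these cells in the differences was not tested.

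Around Bach2, 2 of 10 genes were higher and 1 lower in Z4 than in Z1, where 39.3% of all genes were called. Each of these family calls was ended by leaving out a single array. Bach1, the nearest relative, was not called (0.04, limma adjusted p = 0.910), and Nfe2l2, the activator that competes for the same elements, was 443 ± 12.9 in Z4 and 400 ± 16.9 in Z1 (0.14, adjusted p = 0.531). Hmox1, a known target of the family, was lower in Z4 (48.4 ± 3.15) than in Z1 (91.0 ± 15.7, -0.72, limma adjusted p = 0.0139).

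Around Susd4, 4 of 11 complement regulators were higher and 1 lower in Z4 than in Z1, where 39.3% of all genes were called. Cd59a, which blocks the membrane attack complex, rose from 453 ± 91.4 to 765 ± 13.98 (0.75, limma adjusted p = 0.00461) and was also above WT by 0.84. Cd46 rose by 1.04, ended by quantile normalization (adjusted p = 0.0607), and vitronectin (Vtn) fell by 0.70 (limma adjusted p = 9.58e-04). In the M line the means moved the same way, from 524 in M1 to 644 in M4 for Cd59a, 10.1 to 62.0 for Cd46 and 6303 to 4515 for Vtn. Cd55 was not called (-0.20, adjusted p = 0.466). Against WT 2 of the 11 were higher and 4 lower in Z4, where 12.3% of all genes were called.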

How the data were processed

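The authors deposited a linear intensity per probe set, between 0 and 22995.4, for liver RNA from 15 mice. RMA, with no version, is the only tool in the submitters' processing notes, but the values are not in log2 units, include 0, and have a 2% trimmed mean of 150.06 to 150.08 on every array. The scaling step is not stated there. The number of arrays, 3 mice per group, limits the precision. The p-values rest on the spread between mice within groups, pooled per gene over all 15 arrays and moderated across genes.

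Of 22690 probe sets, 64 were controls, 20380 had 1 gene, 691 several and 1555 none by the platform table. Each gene was read by its probe set with the highest mean signal. Signals plus 16 were log2 transformed and fitted with limma 3.58.1 (R 4.3.3), with 1 mean per group over 15 arrays and 12393 genes, 10 residual and 3.88 prior degrees of freedom, two-sided tests, and Benjamini-Hochberg adjustment per contrast. Genes with an adjusted p under 0.05 were called. Other probe sets entered a fit of all 20380. The planned tests of M4, M1 and Z1 minus WT were run, but their p-values for the 7 genes are not printed, since those arrays also chose the genes.

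The 7 genes, the 7 family lists and the 12 marker lists were chosen with earlier results of these data known. Family genes named were, per list, up to 3 called with the smallest adjusted p in Z4 minus Z1, and 12 fixed relatives. The most alike genes were the 3 with the highest Pearson r over 15 arrays, with clone and predicted-gene symbols passed over. On simulated data, with changes in M4 minus WT over 12393 genes, the fit recovered 23.9% of changes of 0.585 log2 units, 59.7% of 1 and 100% of 2, and called 0.0984% of unchanged genes. The simulation used independent normal noise around 1 mean per gene, with 66 or 67 genes changed at each size. It held no array-wide level differences and no mixed M4 group, so these rates need not apply to the real contrast. Figures were drawn with matplotlib 3.10.9. Alternatives were constants of 1 and 64, quantile normalization, only genes above the 40th percentile of mean, all probe sets, an intensity trend with robust spread, only the groups compared, replicate number as a block, and arrays left out. Same-numbered arrays of different groups did not deviate together (r of -0.171 to 0.066 over 30 pairs), and the main fit used no pairing by number. With 3 arrays per group this check cannot exclude a pairing. Cholangiocyte, neutrophil, T and NK cell, and pancreas and adipose markers were read too, and summed to 26 to 46.2, 207.2 to 252.9, 106.6 to 162.6 and 805.8 to 1539.4 in Z4, 42.8 to 57.9, 253.4 to 271.5, 152 to 192.4 and 504.4 to 849.9 in M4, 35.9 to 74, 59.5 to 98.6, 43.5 to 58.5 and 948.3 to 1952.4 in Z1, 50.7 to 94.5, 63.9 to 163.8, 40.5 to 91.7 and 1049.4 to 1109 in M1, and 23.8 to 86.8, 181.7 to 285.1, 95 to 112.2 and 830.4 to 943.7 in WT. Female-type liver genes summed to 13612.9 and 13573.8 on M4 arrays 1 and 2 and 261.4 to 1997.5 on the others.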

Additional observations from a re-analysis of the deposited data

Results flagged for a closer look

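Gna14 moved in opposite ways in the 2 lines: every Z4 array lay above every Z1 array, and every M4 array lay below every M1 array. The difference of the on-off differences was 2.77 log2 units, was used in choosing the gene and was not tested. Among the family genes, Btg1 had an on-off difference that was lower in the Z line than in the M line by a tested interaction (-1.19, SE 0.23, limma adjusted p = 0.0427). It read 793 ± 91.6 in Z1 and 362 ± 9.03 in Z4, against 441 ± 86.8 in M4, 408 ± 55.0 in M1 and 349 ± 58.0 in WT (SD, n = 3). Z1 was thus the group that stood apart, and Z4 was near WT. The Btg1 call ended with a constant of 1, with the replicate block, with only these groups in the fit, and in 9 of 12 fits without 1 array. Groups of 3 arrays are too small for the test of single outlying samples, so Z1 array 3 in Gna14 and Nox4 is described above only by its values.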

How the results depend on the processing

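Nox4 in M4 minus WT stayed lower under every alternative run (-1.73 to -2.77). With a constant of 1 the 7-gene medians were 2.25 in Z4 minus Z1, -0.53 in M4 minus M1 and 3.12 in the interaction, 0 and 10 family genes were called in Z4 minus M4 and Z4 minus WT, and 1 of the 7 (Cntn2) in M1 minus WT. In Z1 minus WT the count stayed at 1, but Cntn2 (-0.89) was called in place of Nox4. With 64 the medians in Z4 minus Z1 and in the interaction were 0.83 and 0.92, 5 family genes were called in Z4 minus M4, and 2 and 0 of the 7 in M1 and Z1 minus WT. After quantile normalization 26, 5, 7 and 31 family genes were called in Z4 minus Z1, Z4 minus M4, Z4 minus WT and M4 minus M1, and 0 of the 7 in Z1 minus WT. The 40th percentile left 5 of the 7 genes, without Sema3e and Cntn2, and 50 family genes, with medians of -0.90 in M4 minus M1, -0.42 in Z1 minus M1 and 2.72 in the interaction, and 26, 5 and 30 family calls in Z4 minus Z1, Z4 minus M4 and M4 minus M1. Family calls in Z4 minus M4 were 5 with an intensity trend, 0 with only the groups compared and 6 over all probe sets. Without M4 arrays 1 and 2 the interaction median was 1.42. With only the groups compared 2 and 0 of the 7 were called in M1 and Z1 minus WT. Over all probe sets 2, 1 and 2 of the 7 were called in M4, M1 and Z1 minus WT, and the interaction median was 0.90.

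The replicate block left 1 family call in Z4 minus M4 and 0 of the 7 in Z1 minus WT, and all genes called in the interaction went from 76 to 2. Family genes called lower in M4 minus M1 went from 8 to 5, and no other printed total of the 7 genes or of all families moved by over 1.5 times. Leaving out 1 array at a time gave 1 to 11 family calls in Z4 minus M4 (11 without M4 array 1), 10 to 16 in Z4 minus WT (10 without Z4 array 3), and 0 to 1 and 0 to 2 of the 7 in M1 and Z1 minus WT.

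Some differences changed sign, and those from WT were not called in the main fit. For M4 minus WT these were Gna14 (1e-04 with a constant of 1), Tob2 (-0.0072 after quantile normalization, -0.12 without M4 arrays 1 and 2) and Sema3e (0.0446 without those arrays), and with single arrays left out the ranges were -0.11 to 0.22 for Tob2, -0.32 to 0.15 for Gna14 and -0.28 to 0.69 for Susd4. Susd4 in M4 minus M1, which was not tested, was 0.0548 without M4 arrays 1 and 2, against -0.90 with all arrays. Bach2 in M1 minus WT was 0.18 after quantile normalization and -0.59 to 0.0476 with single arrays left out. In Z1 minus WT, Sema3e was -0.20 and Tob2 -0.51 over all probe sets, and -0.20 to 0.49 and -0.0407 to 0.34 with single arrays left out. Causes were not tested.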
